A study of Brassica napus with 27 samples.

Results

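The facing ends of chromosomes A02 and C02 of oilseed rape are 2 stretches of genes at the low-numbered ends of both chromosomes. They were chosen by gene name, from BnaA02g00010D to BnaA02g01860D and from BnaC02g00010D to BnaC02g04410D, and a gene was kept where its FPKM (fragments scaled by gene length and sequencing depth) reached 1 or more in 3 or more of all 27 libraries. This left 300 genes of 627 in the 2 ranges, namely 100 of 186 on A02 and 200 of 441 on C02, among 46395 of 104573 genes in the whole table that passed the same filter. The other 86 and 241 genes stayed under it. Only 2 members of each end passed through a single group of libraries, and 54 members of the A02 end and 77 of the C02 end had an FPKM of at least 1 in every library. The ends were chosen because they shifted in opposite directions in 1 group, so that this shift is described here without a test.

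Leaves of young Brassica napus plants of the cultivar Visby were treated by drops on 1 leaf and sequenced 2, 48 and 96 h later. Hal leaves had received 0.5 µg of halauxifen-methyl per leaf and Pic leaves 2.4 µg of picloram per leaf, both auxinic herbicides, while the control leaves are labelled as not treated or as control and, by the study's methods, received the solvent only. Each of the 9 groups has 3 libraries from different plant material, and no label says which plants or how many are in a library. All plants shared 1 cultivar, 1 leaf stage and 1 growth regime. The libraries held 15565637 to 19692242 reads on genes, and no library was left out. Leaf marker genes were those for chlorophyll a-b binding proteins and the small chain of Rubisco, 52 above the filter of 58 listed. Their summed FPKM lay between 98665 in a library of Hal leaves at 96 h and 198110 in 1 of control leaves at 48 h.

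Brassica napus carries the A genome of Brassica rapa and the C genome of Brassica oleracea side by side, so that most of its genes exist as a pair of homoeologues, an A copy and a C copy of common descent. Chromosomes A02 and C02 are such a pair, and their genes follow each other in largely the same order. The 2 copies of a pair usually encode nearly the same protein, and either copy may give the larger part of the transcript. At meiosis homoeologues can pair with each other in this species, which may replace a stretch of one chromosome by a copy of the other, a homoeologous exchange that differs between cultivars and between plants. DNA was not measured in these samples.

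Genes of both ends were paired by gene order, strand, gene length, domain and description alone, with no use of expression. The A02 end lies on a single scaffold of the file's annotation, at 923718 to 1773327, with gene numbers that increase toward lower positions, and the C02 end is spread over 7 scaffolds. The genome build is not given in the sources used here. A run from BnaA02g00160D to BnaA02g00770D paired in opposite orientation with BnaC02g00010D to BnaC02g00720D over 47 gene pairs, and a run from BnaA02g00950D to BnaA02g01860D paired in the same orientation with BnaC02g03760D to BnaC02g05000D over 62 pairs. The inner limits of the 2 ends are therefore not facing points: the last genes of the A02 end pair with C02 genes beyond BnaC02g04410D, and many C02 genes pair with A genes on scaffolds not placed on a chromosome. Of the 100 members on A02, 41 had a partner in the C02 end, 34 a partner elsewhere and 25 none. Of the 200 members on C02, 43 had a partner in the A02 end, 89 elsewhere and 68 none. Both genes passed the filter in 35 pairs with both genes in the ends, in 84 pairs of a C02 member with an A gene elsewhere and in 31 pairs of an A02 member with a C gene elsewhere.

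The Hal leaves at 48 h stood farthest from the rest, with the A02 end higher and the C02 end lower. The choice of the ends does not name its group, and Hal at 48 h was taken as that group for this reason. For each gene the mean log2(FPKM + 1) of a group was set against the mean of the other 8 groups, and the median of this difference was taken over the genes of an end. On this scale the A02 end differed by 0.34 in Hal at 48 h, with 74 of 100 members higher and 26 lower, and its 3 libraries, taken singly, lay between 0.31 and 0.33. The C02 end differed by -0.53, with 25 of 200 members higher and 175 lower, and its 3 libraries lay between -0.60 and -0.53. Among the genes with a mean FPKM of at least 5, every one of 55 C02 members was below its mean in the other groups, at a median of 0.474 times that level (range 0.101 to 0.834), and 30 of them were below 0.5 times. Of the 39 such A02 members, 31 were above their mean in the other groups and the median was 1.26 times (range 0.338 to 4.59).

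The other groups did not lie at a common level either. At 2 h the C02 end differed by 0.24 in Hal, 0.36 in Pic and -0.30 in control leaves, and at 48 h by -0.27 in Pic and 0.33 in control leaves. The A02 end moved the other way in each of these groups, by -0.14 in Hal, -0.14 in Pic and 0.09 in control leaves at 2 h, and by 0.06 in Pic and -0.13 in control leaves at 48 h. At 96 h the C02 end differed by 0.05 in Hal, 0.16 in Pic and 0.04 in control leaves, and the A02 end by -0.05, -0.02 and -0.03 in the same order of groups. The control leaves were thus low on C02 at 2 h and high at 48 h, while the Pic leaves were high at 2 h and low at 48 h. The 3 libraries of a group lay close together, with an SD of at most 0.04 for the C02 end and 0.09 for the A02 end, whereas single libraries of all groups spanned 0.97 and 0.54. The 100 C02 genes next to the end differed by -0.71 in Hal at 48 h, with 94 of them lower. The 100 A02 genes next to the end differed by 0.20 in that group. Over all genes of the rest of the chromosomes, these included, the medians were smaller, between -0.09 and 0.06 over 1561 genes of A02 and between -0.15 and 0.08 over 1639 genes of C02.

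**Figure D1:**
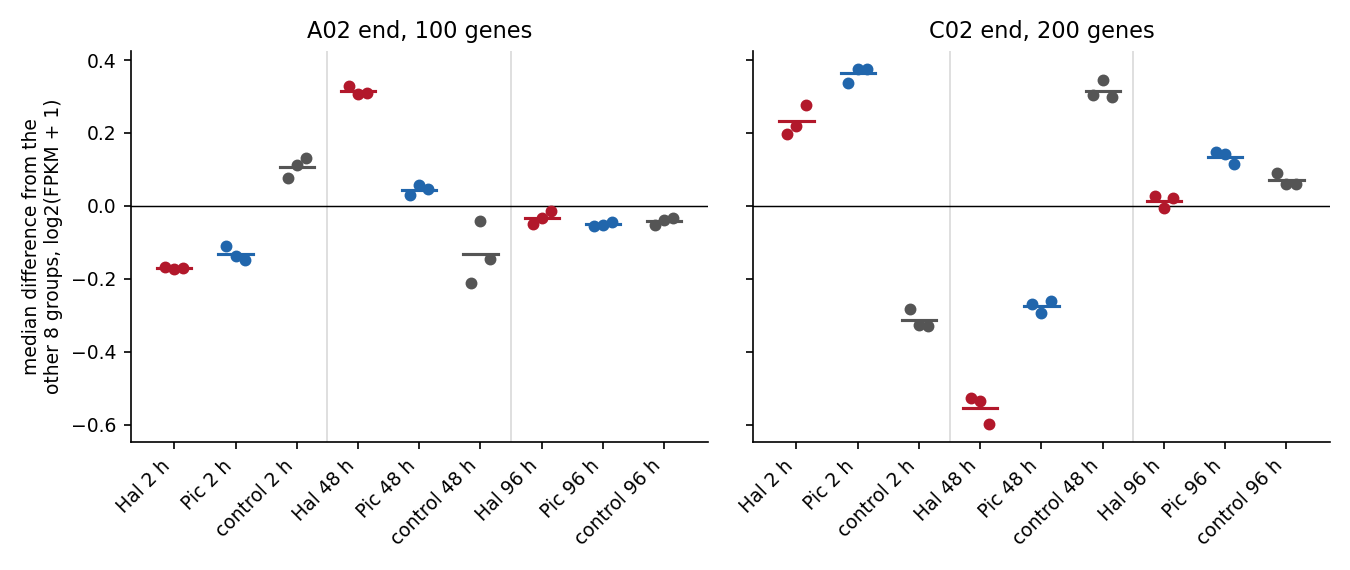
Median difference of each library from the mean of the other 8 groups, in log2(FPKM + 1), for the 100 genes of the A02 end (left) and the 200 genes of the C02 end (right). Points are single libraries and short lines their mean (n = 3 in each group); Hal at 48 h lies highest on A02 and lowest on C02, and control and Pic leaves change places between 2 and 48 h on C02.

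The share of a pair's transcript that came from its A copy showed the same levels with both copies in a single measure. Where both genes lay in the ends (34 pairs with reads in every library), the median A share at 2 h was 51.1% in Hal, 47.0% in Pic and 72.3% in control leaves. At 48 h it was 77.1% in Hal, 70.5% in Pic and 47.2% in control leaves, and at 96 h it was 61.8% in Hal, 51.8% in Pic and 63.0% in control leaves. In all 34 pairs the A copy gave more than 50% in Hal leaves at 48 h, against 14 of 34 in control leaves at 48 h and 15 of 34 in Pic leaves at 2 h. The median shares of the 3 libraries of a group had an SD of at most 3.25 percentage points, and the 9 groups fell near 3 levels: Hal and Pic at 2 h, control at 48 h and Pic at 96 h between 47.0% and 51.8%, Hal and control at 96 h at 61.8% and 63.0%, and control at 2 h, Pic at 48 h and Hal at 48 h between 70.5% and 77.1%. Each of Hal, Pic and control leaves stood in more than 1 of these levels.

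The 83 pairs of a C02 member with an A gene outside the ends had the same 3 groups on top. The other groups ran from 51.0% to 61.9% without the separate levels seen above. Their shares contain the C02 members that the choice of the ends used, and only their A genes are apart from it. The median A share at 2 h was 57.4% in Hal, 52.1% in Pic and 74.3% in control leaves, at 48 h it was 77.0% in Hal, 72.7% in Pic and 51.0% in control leaves, and at 96 h it was 61.9% in Hal, 56.3% in Pic and 60.0% in control leaves. The 95 A genes outside the ends that pair with any gene of the C02 range, kept or not, lie on unplaced scaffolds in 91 cases. Of the 95, 84 pair with a member. As a set they were higher by 0.28 in control leaves at 2 h, 0.18 in Hal and 0.15 in Pic leaves at 48 h, and differed by -0.24 in control leaves at 48 h. The 30 pairs of an A02 member with a C gene outside the ends behaved otherwise. Their A share was 74.8% in Hal at 48 h and between 41.9% and 50.5% in the other 8 groups, so that control leaves at 2 h (50.3%) and Pic leaves at 48 h (44.3%) did not stand apart over the whole set. The set was mixed. A run of 5 pairs with unplaced C genes, from BnaA02g00810D to BnaA02g00920D, had 90.4% in control leaves at 2 h. It had 89.1% in Hal, 75.2% in Pic and 68.9% in control leaves at 48 h. The 26 pairs with C02 genes beyond BnaC02g04410D had 45.6% in control leaves at 2 h. At 48 h these had 72.6% in Hal, 37.5% in Pic and 43.2% in control leaves. The 32 C genes outside the ends that pair with any gene of the A02 range, 27 of them on C02 beyond BnaC02g04410D and 31 paired with a member, differed by -0.77 in Hal at 48 h, with 30 of 32 lower. The stretch that follows holds 76 pairs with C02 genes up to BnaC02g09310D, a limit set after the data were seen. They had an A share of 74.5% in Hal at 48 h and between 48.2% and 55.4% in the other groups. Over the 440 pairs farther along both chromosomes it lay between 47.4% and 53.4% in all groups.

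**Figure D2:**
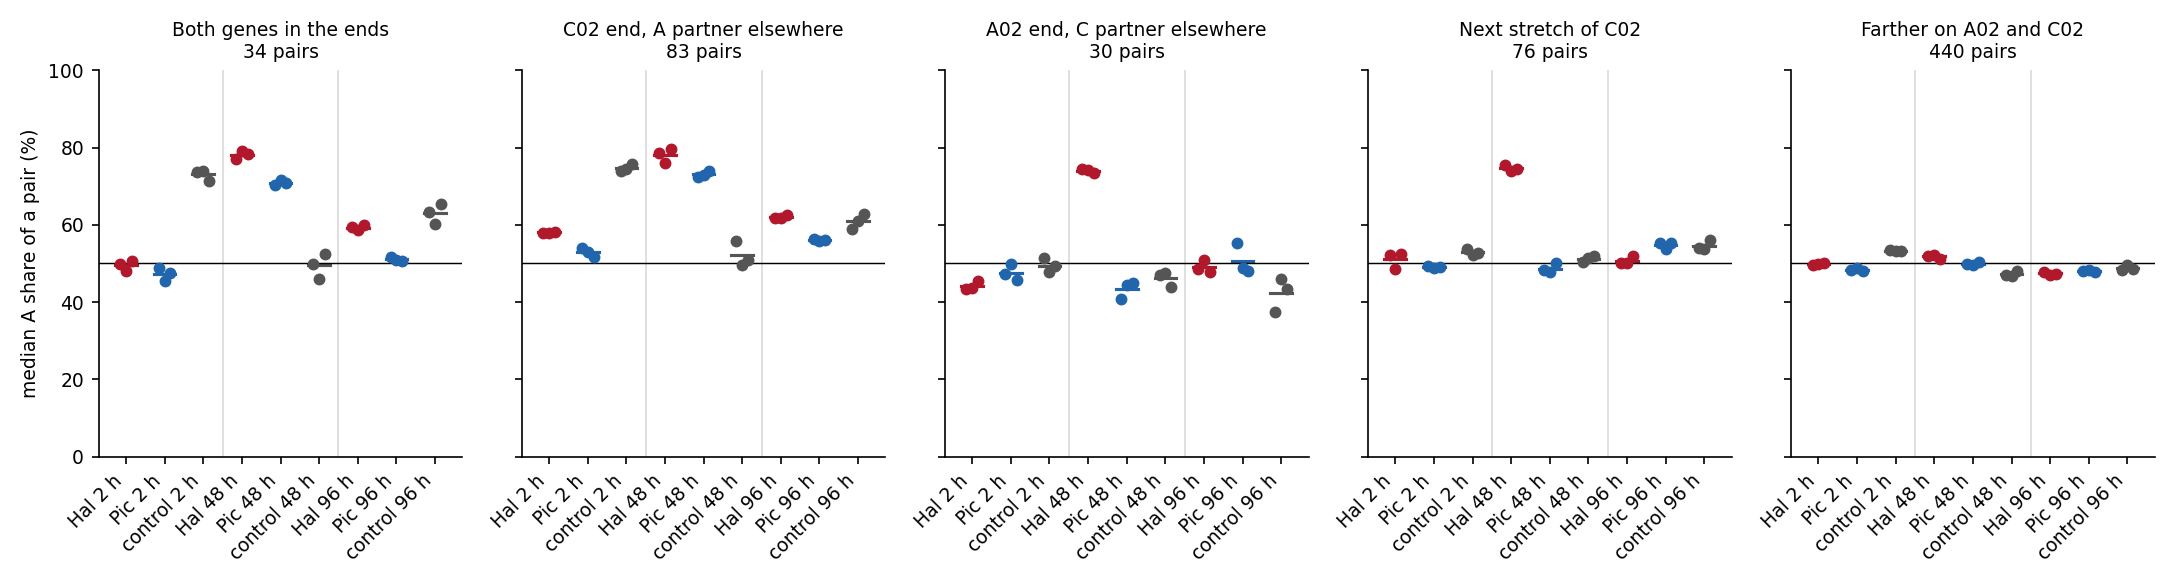
Median share of the A copy in the summed FPKM of a homoeologous pair, in percent, for each library, in 5 sets of pairs: both genes in the ends, C02 end with an A partner elsewhere, A02 end with a C partner elsewhere, the stretch that follows up to BnaC02g09310D, and the pairs farther along A02 and C02. Points are libraries and short lines their mean (n = 3 in each group); control at 2 h, Hal at 48 h and Pic at 48 h are high in the first 2 sets, Hal at 48 h alone is high in the next 2 sets (74.8% and 74.5% over the group), and the last set stays near 50%.

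In Hal leaves at 48 h the summed transcript of the pairs within the ends moved less, by its median, than the copies. Over the 35 pairs with both genes in the ends, the summed FPKM in Hal leaves at 48 h differed from the other groups by -0.03 on the log2 scale, while the A copies differed by 0.36 and the C copies by -0.65. The 3 libraries gave -0.10, -0.11 and 0.00. In 23 of the 35 pairs the A copy was higher and the C copy lower, and in none was it the other way round. In control leaves at 48 h the A copy was lower and the C copy higher in 19 pairs, the reverse in 0 pairs, and the sum differed by 0.01. In Pic leaves at 2 h this held for 29 pairs against 0, with a sum that differed by 0.00. The median of the sums lay between -0.04 and 0.07 in the 9 groups, between -0.08 and 0.08 in the 84 pairs with an A gene elsewhere, and between -0.13 and 0.17 in the 31 pairs with a C gene elsewhere. Single pairs still moved, by a median of 0.25 in either direction in Hal leaves at 48 h. The near balance in that group also depended on which pairs were taken. The median of the sums was -0.13 over the 17 pairs with an FPKM of at least 5 in 3 libraries. It was -0.25 over the 8 pairs whose text occurs only once in each end, and 0.060 with libraries set to equal totals of reads. Beyond the ends, over the 76 pairs of the stretch that follows, the sum was not balanced in Hal leaves at 48 h. There it differed by -0.24, the A copies by 0.14 and the C copies by -0.71.

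**Figure D3:**
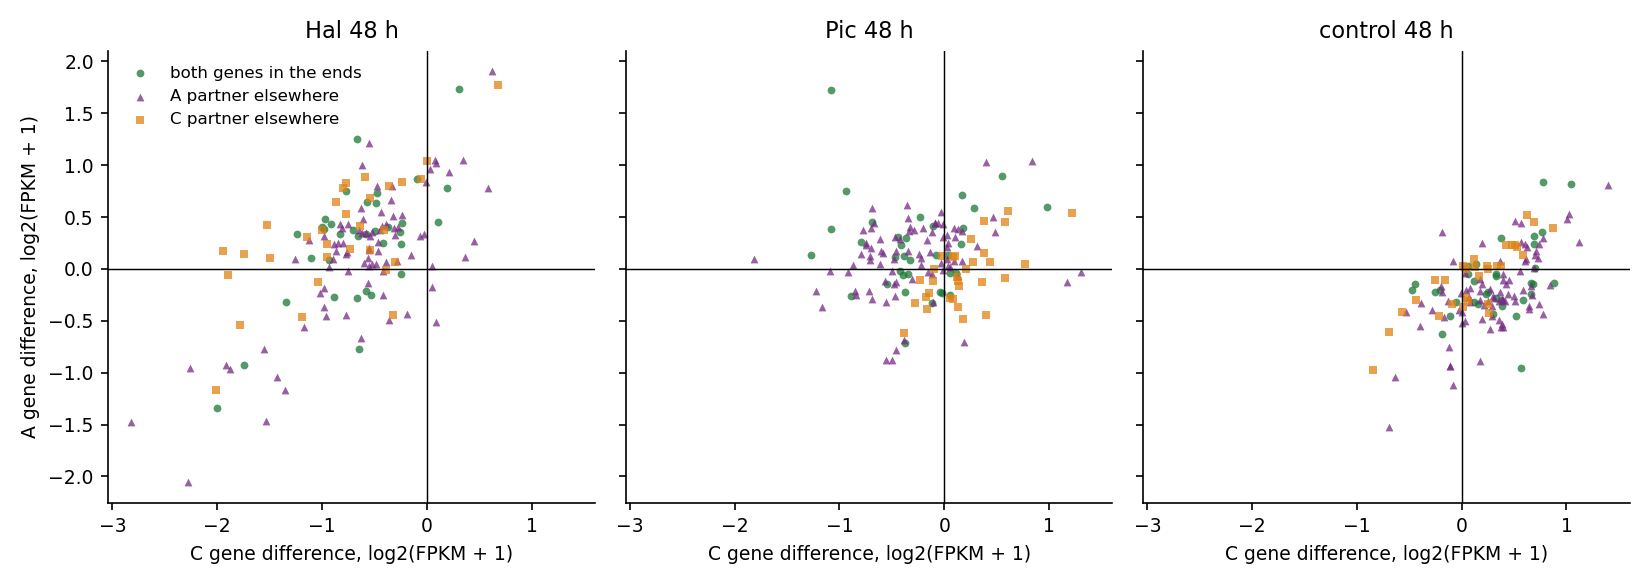
Difference of the A gene (vertical axis) against that of the C gene (horizontal axis) of each pair from the other 8 groups, in log2(FPKM + 1), for Hal, Pic and control leaves at 48 h. Each point is 1 of 35, 84 or 31 pairs by set; in Hal leaves most points lie above and left of the origin, with 23 of 35 green points in that quadrant, and in control leaves the pairs with both genes in the ends or an A partner elsewhere lie mostly below and right of it.

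The stretch that stood apart was of different length in different groups. In windows of 20 genes along C02, the median in Hal leaves at 48 h lay between -0.77 and -0.37 in the 10 windows of the end, went on at -0.84 and -0.73 in the next 2 windows beyond BnaC02g04410D, and was still -0.49 in the window from BnaC02g08960D to BnaC02g09360D. From BnaC02g09390D on it was between -0.14 and -0.08. A window from BnaC02g07750D to BnaC02g08030D stood at 0.05 in this group, at -1.21 in control leaves at 2 h and -1.24 at 96 h, and at 1.64 in Pic leaves at 48 h. In control leaves at 2 h the windows of the C02 end lay between -0.46 and -0.13, and the next 3 between -0.02 and 0.06. In Pic leaves at 48 h they lay between -0.47 and -0.19 up to BnaC02g03980D, and the window from BnaC02g04000D to BnaC02g04410D was already at 0.03. The unbroken run of low windows from the end of C02 thus reached farther in Hal leaves at 48 h than in control leaves at 2 h and in Pic leaves at 48 h.

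On A02 the windows were noisier. In Hal leaves at 48 h the 5 windows of the end lay between 0.28 and 0.38, the next 3 between 0.25 and 0.40, and the window from BnaA02g03010D to BnaA02g03400D at -0.10. A second raised part followed, at 0.88 from BnaA02g03890D to BnaA02g04180D and 0.35 in the next window. In Hal leaves at 2 h the first 3 windows stood at -0.29, -0.36 and -0.14 and the 3 after them between -0.07 and 0.02. Single windows farther on were also low, with -0.25 from BnaA02g02690D to BnaA02g03000D and -0.61 from BnaA02g03890D to BnaA02g04180D. In the gene pairs the change of level was sharp. Along C02 the blocks of 15 pairs up to BnaC02g03580D had a median A share between 69.8% and 80.4% in control leaves at 2 h, the block from BnaC02g03590D to BnaC02g04450D had 68.9%, and the next, from BnaC02g04460D, had 50.7%. A run of 5 pairs inside the end, from BnaC02g03560D to BnaC02g03620D, went otherwise, with 52.3% in control leaves at 2 h, 49.6% in Hal, 74.1% in Pic leaves at 48 h and 72.4% in control leaves at 96 h. The blocks before and after BnaC02g04460D had 68.5% and 44.3% in Pic leaves at 48 h, but 73.5% and 76.4% in Hal leaves at 48 h, which fell to 47.4% only in the block from BnaC02g09880D to BnaC02g10510D.

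**Figure D4:**
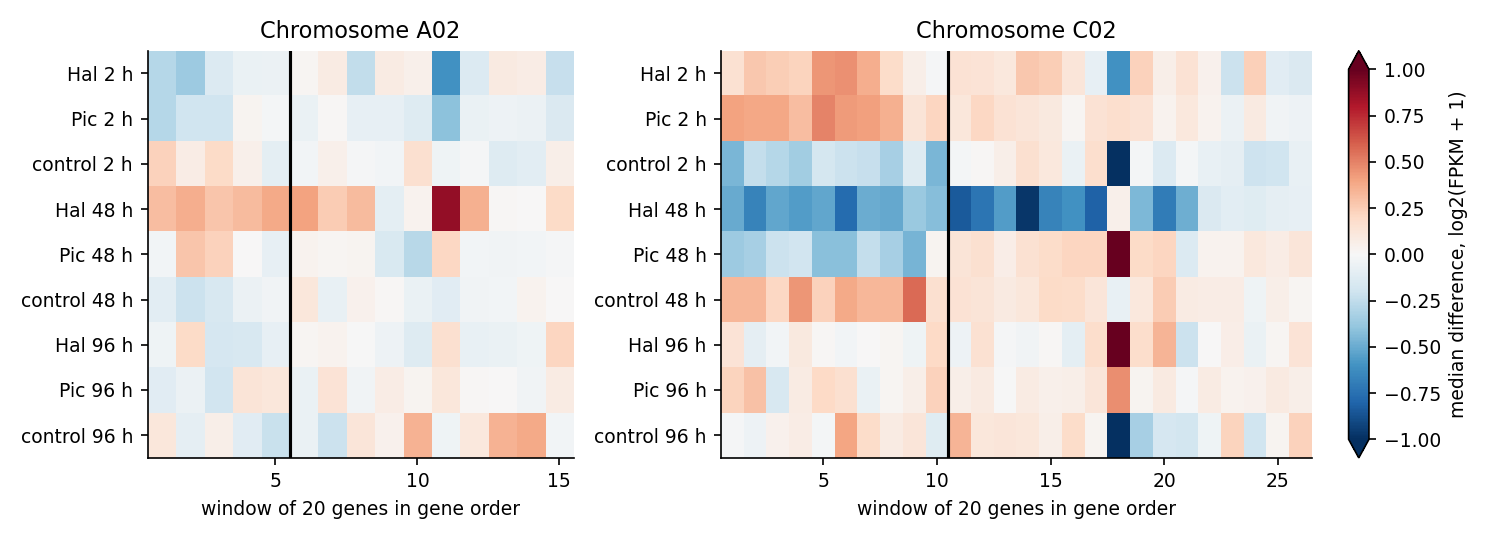
Median difference of each group from the other 8, in log2(FPKM + 1), in consecutive windows of 20 genes from the low-numbered end of A02 (left) and C02 (right). Red is higher, blue is lower, colours are capped at 1, and the black line marks the inner limit of each end; the blue row of Hal at 48 h goes on beyond the line on C02, while the even blue of control at 2 h and Pic at 48 h ends at or before it. Single windows beyond it are also blue, most of all that from BnaC02g07750D in control at 96 h (-1.24) and at 2 h (-1.21).

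**Figure D5:**
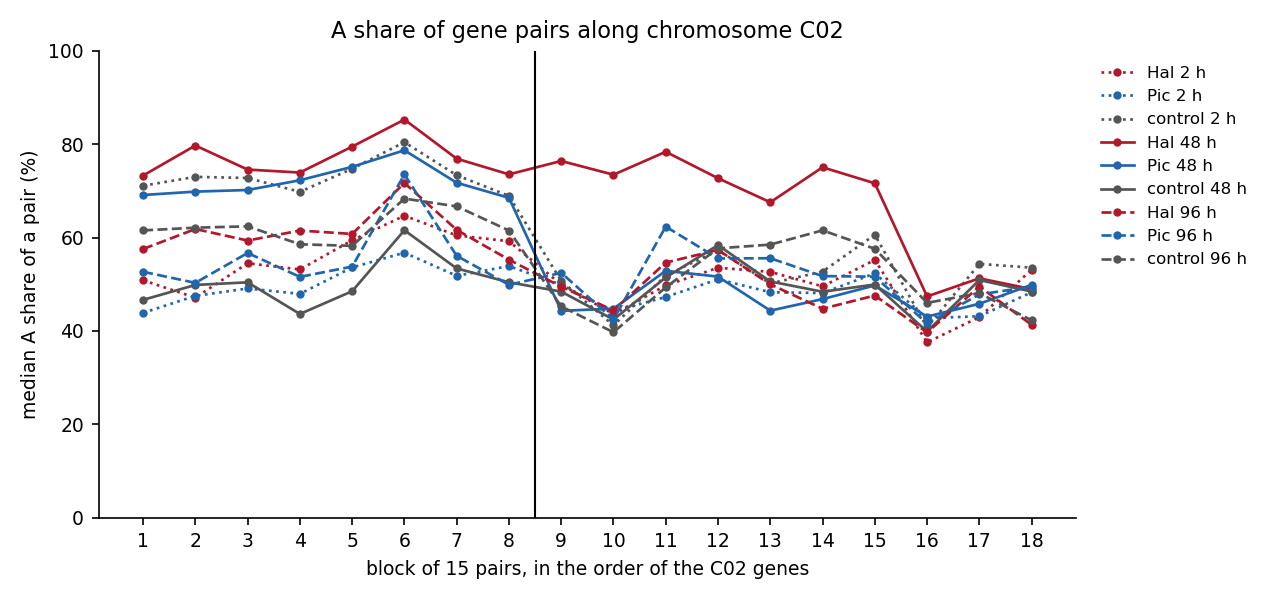
Median A share, in percent, of consecutive blocks of 15 gene pairs in the order of their C02 genes, as 1 line for each group. The black line follows the block that holds the inner limit of the C02 end; 3 lines are high before it, only that of Hal at 48 h (76.4% in the next block) stays high after it, and all groups lie between 37.6% and 47.4% in block 16.

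The genes just inside and just outside the limits showed no step in Hal leaves at 48 h. On A02 the last members, BnaA02g01840D and BnaA02g01860D, differed by 1.04 and 0.42 from the other groups, and the next genes, BnaA02g01870D and BnaA02g01880D, by 0.65 and 0.42. On C02 the last members, BnaC02g04370D and BnaC02g04410D, differed by -0.65 and -0.44. The next genes above the filter, BnaC02g04430D and BnaC02g04450D, differed by -1.19 and -0.73. BnaC02g04430D, the first gene beyond the limit that passed the filter, had 4.06, 4.73 and 4.03 FPKM in Hal leaves at 48 h. The 24 other libraries had 9.28 to 12.8 FPKM, with no overlap.

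The actin pair shows the pattern in an abundant gene. Actin forms the filaments of the cytoskeleton, and the pair consists of BnaA02g00190D (scaffold positions 1698163 to 1700499, minus strand) and BnaC02g00690D (22947 to 25266, plus strand). The C copy had 55.8, 57.6 and 55.7 FPKM in Hal, 49.5, 48.6 and 52.1 in Pic, and 26.8, 25.7 and 28.5 in control leaves at 2 h. At 48 h it had 17.3, 18.9 and 18.7 FPKM in Hal, 31.6, 31.4 and 33.0 in Pic, and 37.1, 57.4 and 44.6 in control leaves. At 96 h it had 28.2, 33.7 and 29.5 FPKM in Hal, 50.4, 47.3 and 60.4 in Pic, and 39.1, 41.0 and 40.6 in control leaves. Hal leaves at 48 h were below all other libraries. Next came control leaves at 2 h, and then Hal leaves at 96 h and Pic leaves at 48 h, with overlap among these groups. The A copy varied less, with group means between 53.4 ± 4.65 FPKM in Pic leaves at 96 h and 89.2 ± 6.91 FPKM in Pic leaves at 48 h (SD, n = 3). The A share was 79.2% ± 0.819 in Hal, 73.6% ± 0.947 in Pic and 54.5% ± 3.47 in control leaves at 48 h (SD, n = 3), and the sum 88.0 ± 1.64, 121 ± 7.81 and 101 ± 15.3 FPKM in the same groups.

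The pair with the highest summed level encodes malate dehydrogenase, which interconverts malate and oxaloacetate. Its C copy BnaC02g00740D had 185, 176 and 182 FPKM in Hal, 291, 312 and 307 in Pic, and 388, 279 and 341 in control leaves at 48 h. At 2 h the C copy had 273, 257 and 341 FPKM in Hal, 392, 383 and 327 in Pic, and 185, 171 and 187 in control leaves. The control libraries were thus as low at 2 h as the Hal libraries were at 48 h. The A copy BnaA02g00100D gave 55.1% ± 1.87 of the sum in Hal, 43.5% ± 0.641 in Pic and 34.7% ± 0.269 in control leaves at 48 h, and 32.3% ± 1.22 in Hal, 29.5% ± 1.48 in Pic and 52.7% ± 1.03 in control leaves at 2 h.

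FLC is a MADS-box repressor of flowering, known from Arabidopsis thaliana as the gene that vernalization silences. The file describes BnaA02g00370D (scaffold positions 1636658 to 1640508, plus strand) as FLC.A2, and BnaC02g00490D, with the SRF-TF domain of MADS-box factors, is its partner. The A copy had 10.03, 20.1 and 11.9 FPKM in Hal, 12.2, 12.1 and 11.4 in Pic, and 6.07, 7.92 and 5.38 in control leaves at 48 h. The C copy had 3.09, 4.21 and 3.32 FPKM in Hal, 3.35, 2.76 and 2.85 in Pic, and 7.53, 7.81 and 6.83 in control leaves at 48 h. Both herbicide groups lay above the control on A02 and below it on C02, without overlap. At 2 h it was the control that had the high A share, 74.1% ± 4.60 against 53.9% ± 8.87 in Hal and 38.2% ± 2.66 in Pic leaves (SD, n = 3). The summed level was 17.6 ± 5.97 FPKM in Hal, 14.9 ± 0.676 in Pic and 13.9 ± 1.78 in control leaves at 48 h, which overlap.

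Core histones package the DNA, and the histone pair BnaA02g00480D and BnaC02g00380D changed in level and in share. The C copy had 11.4, 10.2 and 6.54 FPKM in Hal, 11.6, 12.1 and 13.6 in Pic, and 45.8, 29.4 and 35.4 in control leaves at 48 h, with all herbicide libraries below all controls. Its A copy had 26.3, 27.5 and 23.2 FPKM in Hal, 27.4, 25.3 and 26.9 in Pic, and 44.4, 32.9 and 41.9 in control leaves. Both copies were thus lower, the C copy more so, and the A share was 73.6% ± 4.14 in Hal, 68.1% ± 1.93 in Pic and 52.1% ± 2.59 in control leaves (SD, n = 3). Another histone gene of the A02 end, BnaA02g00780D for histone H3, was found without a partner and had 113, 114 and 103 FPKM in Hal leaves at 48 h, against 94.0, 95.0 and 101 in Pic and 69.0, 69.1 and 72.5 in control leaves.

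By the same measure 3 genes for proteins of the small ribosomal subunit stood lowest on C02 in Hal leaves at 48 h, among members with a mean FPKM of at least 5 and a description or domain. BnaC02g03430D, with the domain of ribosomal protein S12, had 4.15, 5.71 and 4.12 FPKM in Hal, 13.7, 13.97 and 16.4 in Pic, and 57.2, 44.7 and 51.2 in control leaves at 48 h. The groups did not overlap. Its A partner on an unplaced scaffold, BnaAnng00560D, had 23.0, 17.96 and 17.0 FPKM in Hal, 35.8, 38.4 and 42.9 in Pic, and 68.2, 49.5 and 61.0 in control leaves. The A copy was also lowest in Hal leaves, and the A share was 80.6% in Hal, 72.7% in Pic and 53.9% in control leaves. For 40S ribosomal protein S4, BnaC02g01730D had 2.25, 1.19 and 1.81 FPKM in Hal, 2.48, 3.19 and 2.23 in Pic, and 17.4, 16.4 and 15.4 in control leaves. For 40S ribosomal protein S6, BnaC02g00390D had 10.5, 10.1 and 7.81 FPKM in Hal, 24.998, 21.8 and 22.8 in Pic, and 36.9, 39.1 and 36.2 in control leaves. Its A02 partner BnaA02g00470D differed by -0.93 in Hal leaves at 48 h, so that the summed level was 21.99 ± 1.49 FPKM in Hal, 37.7 ± 1.32 in Pic and 65.3 ± 3.75 in control leaves. These are pairs whose sum was not kept.

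Among the other abundant pairs, the unnamed genes BnaA02g00540D and BnaC02g00320D have no domain and no informative description. As in other pairs, reads that fit both copies may have been hard to part. Their A share was 88.1% ± 0.760 in Hal, 79.8% ± 0.405 in Pic and 68.4% ± 1.16 in control leaves at 48 h. The pair BnaA02g01000D and BnaC02g03800D, with no description, was low as a whole in Hal leaves at 48 h. Its sum was 27.8 ± 0.819 FPKM in Hal, 100.3 ± 3.14 in Pic and 126.9 ± 2.17 in control leaves, while its A share was 81.8% ± 2.88, 76.4% ± 1.21 and 69.7% ± 1.24 in the same groups (SD, n = 3 each).

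Among A02 members with a mean FPKM of at least 5 and a description or domain, the farthest above the other groups in Hal leaves at 48 h was BnaA02g00740D, with a CBS domain, a module that binds adenosyl compounds. It had 32.8, 32.0 and 32.1 FPKM in Hal, 17.0, 16.8 and 16.7 in Pic, and 8.91, 9.22 and 8.41 in control leaves at 48 h, with no overlap. BnaA02g00810D, with the KNOX2 domain of homeobox factors, had 22.3, 19.2 and 19.02 FPKM in Hal, 16.4, 16.0 and 17.9 in Pic, and 9.28, 7.48 and 11.9 in control leaves. BnaA02g01720D, a NUDIX hydrolase gene whose C partner lies beyond the C02 end, had 10.99, 12.2 and 13.0 FPKM in Hal, 7.53, 11.2 and 6.76 in Pic, and 6.62, 5.96 and 6.89 in control leaves. Hal and control leaves did not overlap in any of these 3 genes. Some A02 members went the other way, and among those with a description or domain the farthest was BnaA02g01780D, with the domain of GTP-binding elongation factors, which had 5.46, 5.35 and 6.07 FPKM in Hal, 10.6, 9.64 and 8.87 in Pic, and 13.8, 16.2 and 13.97 in control leaves. BnaA02g01170D, a gene of the 2-oxoglutarate-dependent oxygenases, had 5.70, 4.64 and 4.93 FPKM in Hal and 12.4, 10.5 and 11.9 in control leaves.

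On C02, BnaC02g03470D has the receiver domain of response regulators, which carry phosphorelay signals such as that of cytokinin. It had 1.67, 1.58 and 2.17 FPKM in Hal, 5.35, 4.40 and 3.98 in Pic, and 5.59, 6.64 and 5.76 in control leaves at 48 h, with the Hal libraries below the Pic and control libraries of that time. No C02 gene with a mean FPKM of at least 5 was above its mean FPKM in the other groups. Among those with a description or domain, BnaC02g01860D and BnaC02g03490D differed least on the log2 scale, by -0.15 and -0.20. BnaC02g01860D, a gene for a protein phosphatase of the 2C type, had 5.89, 4.77 and 5.44 FPKM in Hal, 3.22, 2.42 and 3.69 in Pic, and 8.51, 8.58 and 9.95 in control leaves. By words in their descriptions or domains, some members fell into several classes, and a common function was not tested. The 3 protein kinase genes on A02 were all higher in Hal leaves at 48 h, and of 7 on C02, 3 were higher and 4 lower. Of the transcription factor genes, 2 of 4 on A02 were higher and 8 of 10 on C02 were lower. No member was described by a word for auxin or another hormone response. Only 43 of 100 A02 and 89 of 200 C02 members had a description or domain, so the others could not match any word.

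The comparisons of a herbicide with the control of the same time were tested in limma on log2(FPKM + 1) over all 46395 genes, with Benjamini-Hochberg adjustment and an adjusted p under 0.05, and comparisons at 1 time share their control libraries. At 2 h, 106 of 200 C02 members rose and 6 fell in Hal against control leaves, where 10.1% and 11.4% of all genes rose and fell. In Pic against control leaves 123 rose and 1 fell, against 10.7% and 9.37% of all genes. On A02, 7 of 100 rose and 30 fell in Hal, and 5 rose and 29 fell in Pic leaves. The median difference of the C02 members was 0.52 in Hal and 0.63 in Pic leaves, and that of the A02 members -0.21 in both. Between Hal and Pic leaves at 2 h, 11 of 100 A02 members rose and 8 fell, where 9.04% and 11.2% of all genes rose and fell (20.3% in all). These A02 counts are near the share over all genes. On C02 5 of 200 members rose and 24 fell. The falls (12%) were near that share, and the rises (2.5%) were under it. Without the first Pic library at 2 h, 19 C02 members instead of 29 were called.

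At 48 h the direction was the reverse. In Pic against control leaves 10 C02 members rose and 99 fell, where 13.9% and 17.9% of all genes rose and fell, and 30 A02 members rose and 14 fell. The median difference was -0.47 on C02 and 0.15 on A02. Rises made up 68.2% of these A02 calls, and 82.4% with equal totals of reads. That scaling set the median of all genes to 0.14 in this comparison. The effect of Pic at 48 h differed from its effect at 2 h in 139 of 200 C02 members, tested as an interaction in the same limma fit (adjusted p under 0.05), with 2 higher and 137 lower at 48 h, where 9.65% and 13.4% of all genes were called. In Hal against control leaves at 48 h, the contrast taken as closest to the choice of the ends, 57 A02 members were called higher and 12 lower. On C02, 13 members were called higher and 136 lower, beside 23.3% and 25.1% of all genes. Nothing is read from these counts. The same holds for Hal against Pic leaves at 48 h, with 36 A02 members higher and 10 lower and 18 C02 members higher and 69 lower, beside 14.6% and 16.8% of all genes. Rises among the C02 calls of that comparison were 20.7%, and 32.9% with equal totals of reads.

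At 96 h the ends were near the share over all genes. In Hal against control leaves 49 C02 members rose and 62 fell, and 26 A02 members rose and 32 fell, where 29.1% and 30.2% of all genes rose and fell. In Pic against control leaves 59 C02 members rose and 49 fell, and 27 A02 members rose and 30 fell, where the shares were 22.2% and 26.4%. Between Hal and Pic leaves 44 C02 members rose and 50 fell, and 23 A02 members rose and 22 fell, where they were 23% and 22% (45% in either direction). With libraries set to equal totals of reads, the median difference of all genes was 0.42 in Hal and 0.27 in Pic against control leaves at 96 h, instead of 0.01 and -0.01. Under that scaling rises made up 73.2% in Hal and 78.2% in Pic of the C02 calls against control, instead of 44.1% and 54.6%, and 80.8% and 78.7% of the A02 calls, instead of 44.8% and 47.4%. Between Hal and Pic leaves at 96 h it moved the share of rises among A02 calls to 66.7% from 51.1%. The effect of Hal at 96 h differed from its effect at 2 h in 113 C02 members, 23 higher and 90 lower at 96 h, and in 50 A02 members, 35 higher and 15 lower, where 46.3% of all genes were called (interaction in limma, adjusted p under 0.05). The effect of Pic at 96 h differed from that at 48 h in 105 C02 members, where 28.1% of all genes were called, and from that at 2 h in 50 of the 95 A genes outside the ends that pair with genes of the C02 range, where 32.6% of all genes were called.

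The partner genes outside the ends were not used to choose them, though they were looked up with the pattern known and come from the same libraries. Of the 95 A genes that pair with genes of the C02 range, 4 rose and 41 fell in Hal, and 4 rose and 47 fell in Pic against control leaves at 2 h. At 48 h, 40 rose and 9 fell in Pic and 53 were called higher and 18 lower in Hal against control leaves. Rises made up 81.6% of the calls in Pic leaves at 48 h, and 91.8% with equal totals of reads. In the contrasts without Hal at 48 h, these A genes thus went against the C02 members at both times, beside the shares of all genes given above. Nothing is read from the counts in Hal leaves at 48 h. Of the 32 C genes that pair with genes of the A02 range, 10 rose and 0 fell in Hal and 7 rose and 1 fell in Pic leaves at 2 h in limma, and 6 rose and 4 fell in Pic leaves at 48 h. The count of 0 falls was 1 at an unadjusted p under 0.05 and 0 with limma voom on reads. In Hal leaves at 48 h 2 were called higher and 21 lower. The count of 10 in Hal leaves at 2 h was 5 without the first Hal library and 5 without the third control library of that time.

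Among C02 members with a description or domain, the largest fall at 96 h in both herbicide groups was that of BnaC02g03490D, a gene with a methyltransferase domain of the type that uses S-adenosylmethionine, for which no partner was found. It had 77.8, 72.2 and 74.8 FPKM in Hal, 52.3, 61.4 and 46.6 in Pic, and 716, 689.8 and 682 in control leaves at 96 h. It fell by 3.20 ± 0.12 (SE) in Hal and by 3.69 ± 0.12 in Pic leaves on the log2 scale (limma, adjusted p = 1.47e-16 and 4.28e-17), and by 1.07 ± 0.12 in Pic leaves at 2 h (adjusted p = 5.1e-07).

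BnaC02g01720D, a WRKY gene of a family known for defence and stress responses, had 6.07, 4.76 and 4.67 FPKM in Hal and 0, 0.136 and 0.598 in control leaves at 96 h, and rose by 2.33 ± 0.17 (SE) on the log2(FPKM + 1) scale (limma, adjusted p = 1.1e-11). BnaC02g00990D has the NAM domain of NAC factors, which act in leaf ageing and stress. It had 27.4, 25.1 and 23.3 FPKM in Pic and 8.07, 8.31 and 8.81 in control leaves at 2 h, a rise of 1.48 ± 0.10 (adjusted p = 2.64e-11), where Hal leaves had 9.09, 8.46 and 9.10 FPKM. BnaC02g01680D, with an AP2 domain, had 1.95, 1.49 and 1.08 FPKM in Pic leaves at 48 h and no reads in the 3 control libraries, and its difference was 1.31 ± 0.18 (adjusted p = 4.37e-06). It went up against the direction of its chromosome end. On A02, the AP2 gene BnaA02g01080D fell at 96 h, with 0.245, 0.191 and 0.199 FPKM in Hal, 0.353, 0.297 and 0.239 in Pic, and 2.78, 2.47 and 3.23 in control leaves, a change of -1.65 ± 0.17 in Hal and -1.56 ± 0.17 in Pic leaves (adjusted p = 1.23e-08 and 8.61e-08).

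BnaA02g01840D encodes a transporter of the major facilitator family. It had 5.81, 4.75 and 5.996 FPKM in Pic and 1.65, 1.91 and 1.79 in control leaves at 2 h, a rise of 1.22 ± 0.12 (limma, adjusted p = 4.21e-08), and 6.35, 7.37 and 6.15 in Hal and 1.98, 1.06 and 1.42 in control leaves at 96 h, a rise of 1.63 ± 0.12 (adjusted p = 2.68e-11). The bZIP gene BnaA02g00920D had 1.68, 1.46 and 1.295 FPKM in Hal, 1.47, 1.45 and 1.29 in Pic, and 3.85, 6.18 and 4.27 in control leaves at 2 h, and fell by 1.20 ± 0.21 and 1.24 ± 0.21 (adjusted p = 0.00017 and 0.000101). A pair of weakly expressed signalling genes lies on the same end. The kinase gene BnaA02g01550D rose in Pic leaves by 1.34 ± 0.17 at 48 h and by 1.08 ± 0.17 at 96 h (adjusted p = 1.21e-06 and 1.49e-05), and BnaA02g01320D, with a leucine-rich repeat domain, fell by 1.03 ± 0.19 in Pic leaves at 48 h (adjusted p = 0.000123). BnaA02g01830D, with a sigma-70 domain as in plastid sigma factors, rose by 0.82 ± 0.19 in Hal leaves at 2 h (adjusted p = 0.00241).

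Some of the changes in C02 members had the direction of the whole end. BnaC02g01730D, for ribosomal protein S4, had 32.1, 29.7 and 34.3 FPKM in Hal and 15.1, 11.6 and 13.1 in control leaves at 2 h, a rise of 1.22 ± 0.14 (limma, adjusted p = 3.8e-07), and fell by 2.27 ± 0.14 in Pic leaves at 48 h (adjusted p = 3.77e-12). BnaC02g03470D, the response regulator gene, had 7.01, 6.20 and 6.56 FPKM in Pic and 2.60, 2.76 and 2.12 in control leaves at 96 h and rose by 1.12 ± 0.13 (adjusted p = 1.75e-07), although the C02 end as a whole was near the share over all genes at that time. Against the direction of the end, BnaC02g01960D, with the domain of an ABC transporter, fell by 0.69 ± 0.14 in Hal leaves at 2 h (limma, adjusted p = 0.000827).

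What sets these levels was not tested. No label says which plants a group came from, so the herbicide, the time and the plants of a group cannot be told apart in these data, and the near equal values within a group and the change of place between control and herbicide leaves from 2 to 48 h stand as measured. Reads that fit both copies of a pair may have been assigned to either, and how they were treated is not given in the sources used here.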

How the data were processed

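RNA of 27 leaf libraries (9 groups of 3) was sequenced by a service company. The deposited values are FPKM per gene made by the authors; the submitters' processing notes name CASAVA, HISAT2, StringTie, DESeq2, edgeR and GATK with no version, and the genome build is not given in the sources used here. Multiplied by gene length, 100% of the values were whole multiples of a fixed step within 0.01 reads, so reads were worked back; the totals were 15565637 to 19692242, and the deposited scaling differs from that by totals. Replicates are labelled as from different plant material, and p-values measure only the spread between these libraries. The members, lists and pairs were chosen with earlier results of these data known.

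Levels were compared as log2(FPKM + 1) of genes with FPKM of at least 1 in 3 libraries, so that a fold change of a low gene is understated. Contrasts used limma 3.58.1 (R 4.3.3) with a variance trend over 46395 genes and all 9 groups, two-sided, with Benjamini-Hochberg adjustment at 0.05, and the code was tested on simulated data. The choice of the ends does not name its group. Hal at 48 h, the group with the largest median deviation of each end, was taken as that group and described. Calls in contrasts that hold it are given as counts without a reading. Had the choice rested on another group, the counts of contrasts that hold that group would reuse the values behind the choice.

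Homoeologues were paired by collinear chains of genes, scored by shared domain, shared description and length within 10%, with a gap penalty of 0.3 and a chain score of at least 15, at least 4 genes and at least 25% of pairs of the same domain; no sequence was compared, so single pairs are uncertain. The A share of a pair is the FPKM of the A gene over the sum of both. Genes were named by rule. Per end, members with a description or domain and a mean FPKM of at least 5 were ranked in Hal at 48 h. The 5 farthest in the direction of the end and the 2 farthest the other way were taken. So were the 6 pairs of highest summed FPKM. Per contrast without Hal at 48 h, the largest rise and fall were taken among members with a description or domain called with no overlap between groups. The 2 genes above the filter on each side of each inner limit were also named. Partner genes and C02 genes beyond the limit were added after the data were seen. The alternatives tried were another pseudocount, no or a stricter filter, equal totals of reads, each library left out, a replicate block, only the 6 compared libraries, and limma voom on reads.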

Additional observations from a re-analysis of the deposited data

Results flagged for a closer look

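The response to Pic differed between harvest times in a larger share of several of these sets than of all genes, tested as interactions in limma with an adjusted p under 0.05. Between 48 and 2 h it differed in 44 of 100 A02 members, in 139 of 200 C02 members and in 64 of the 95 A genes that pair with genes of the C02 range (A partners), where 23.0% of all genes were called. Of the A02 members 35 were higher and 9 lower at 48 h, of the C02 members 2 were higher and 137 lower, and of the A partners 61 were higher and 3 lower. Between 96 and 48 h it differed in 105 C02 members, 91 higher and 14 lower at 96 h, and in 42 A partners, 5 higher and 37 lower, where 28.1% of all genes were called. Between 96 and 2 h it differed in 50 A partners, 40 higher and 10 lower at 96 h, where 32.6% of all genes were called. The other sets stood out less. Called were 35% of A02 members between 96 and 48 h, and 40% of A02 and 48.5% of C02 members between 96 and 2 h. Of the 32 C genes that pair with the A02 range, 31.2% were called between 48 and 2 h. Only 15.6% of them were called between 96 and 48 h and 25% between 96 and 2 h, under the shares of all genes. These interactions share their control leaves, whose C02 end differed from the other groups by -0.30 at 2 h, 0.33 at 48 h and 0.04 at 96 h.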

How the results depend on the processing

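In Hal at 48 h the A02 end stayed higher and the C02 end lower under all alternatives run. With a pseudocount of 0.1 the medians were 0.41 on A02 and -0.80 on C02, with FPKM of at least 5 in 3 libraries 0.37 and -0.82, and with equal totals of reads 0.44 and -0.46. The summed pairs gave -0.13 with the stricter filter, 0.060 with equal totals and -0.25 over the 8 pairs with text that occurs once; the A share was 79.2% with the stricter filter and 82.4% over those 8 pairs. The stricter filter tests 21613 instead of 46395 genes and leaves out members under it, so its counts cannot be set beside those above. Over all genes 3263 then rose and 4034 fell for Hal, and 3292 and 3402 for Pic, against control at 2 h. At 96 h these were 5768 and 10347 for Hal, and 4709 and 9372 for Pic. With this filter the calls on A02 were 12 for Hal against Pic at 2 h, 36 for Hal and 33 for Pic against control at 96 h. On C02 they were 66 for Hal and 74 for Pic at 2 h, 67 for Hal and 56 for Pic against control at 96 h, and 59 for Hal against Pic at 96 h. Among A partners they were 43 for Hal and 29 for Pic at 48 h, and among C partners 4 for Pic at 2 h, 14 for Hal and 6 for Pic at 48 h. In the fit of only the 6 compared libraries, Hal against Pic at 2 h gave 9 calls on A02 and 14 on C02. Of all 46395 genes 1914 rose and 2803 fell there, and the cause was not tested. Leaving out each library gave 0.31 to 0.35 for A02, -0.56 to -0.52 for C02, -0.06 to -0.02 for the sums, 75.9% to 78.8% for the A share, 19 to 31 calls on C02 for Hal against Pic at 2 h and 5 to 12 among C partners for Hal at 2 h. The replicate numbers did not pair the samples (1 of 27 correlations over 0.1, median -0.0050). With them as a replicate block within harvest time the C02 calls were 108 for Hal and 119 for Pic at 2 h and 106 for Pic at 48 h, with no call count moved by over 1.5 times. Of all 46395 genes 4164 rose and 4844 fell for Hal and 4547 and 3875 for Pic at 2 h. For Pic at 48 h 5921 rose and 7858 fell. With limma voom on reads the calls at 2 h were 111 for Hal and 131 for Pic on C02. Of all 46395 genes 5213 rose and 5721 fell for Hal, and 5114 and 4675 for Pic. All 20 named contrasts of single genes kept their direction and their call in every alternative that tested them. Low genes are limited by depth, since 46 A02 and 123 C02 members were under an FPKM of 1 in at least 1 library.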
